A study of Mus musculus with 68 samples.

Results

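Chondrocyte transcription factors are described here through 10 genes, Sox9, Sox5, Sox6, Runx2, Runx3, Mef2c, Mef2a, Sp7, Irx3 and Irx5. They were chosen by name, with earlier results of these data known, from the 23420 gene symbols of a mouse count table. Growth plate cartilage, the layer that lengthens long bones, was taken from mice on a mixed background at postnatal day 28 (P28), day 3 (P3) and day 2 (P2). Bones were snap-frozen in embedding medium and sectioned, and cells of the resting, hypertrophic and proliferative zones were picked by laser capture, lysed without RNA extraction and made into libraries by SMART-seq2, which copies full-length cDNA from few cells. The 68 libraries comprise 4 resting, 5 hypertrophic and 5 proliferative libraries from xylene-fixed P28 sections, 8, 9 and 9 in the same order from ethanol-fixed P28 sections, 1 of each zone from an ethanol-fixed P3 animal, and 9, 8 and 8 from ethanol-fixed P2 sections. The labels name no allele, sex or treatment other than the fixative. Some animal labels end in L or R, the xylene libraries all in L, and the meaning is not stated. By their title numbers and style of label the libraries also form 2 sets, called the deposit sets here: each holds P28 and P2 ethanol libraries, and all xylene and P3 libraries are in 1 of them. P28 animal B and P2 animal D carry labels that name animals in the plural and can each be a pool.

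SOX9 is the master factor of the chondrocyte lineage, and SOX5 and SOX6, which lack its activation domain, help it to switch on the genes of the cartilage matrix. RUNX2 and RUNX3 act together in chondrocyte maturation, RUNX2 also being required for osteoblasts, and MEF2C drives hypertrophy upstream of and beside RUNX2. SP7, also called osterix, acts in the late hypertrophic cell and in the osteoblast, while IRX3 and IRX5 are Iroquois homeobox factors whose genes lie in the same gene cluster and which take part in early limb patterning.

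The tests used ethanol libraries with at least 100000 counts, 26 of the 51 at P28 and P2, summed per animal and zone into 9 sums of 3 P28 animals and 12 sums of 6 P2 animals. All 3 zones were present for 3 animals at each age. Levels are counts per 1000000 (CPM) with TMM scaling, and a change is the log2 fold change ± its standard error from the fit. A gene was called at a Benjamini-Hochberg adjusted p under 0.05 in edgeR's quasi-likelihood test over 6958 genes, with the animal as a block. With this block, P2 animals C, E and F, which had 1 zone each, carry no zone difference. Each zone difference thus rests on the 3 animals of its age with all zones. Leaving out any other animal acts on it only through the filter, scaling and spread estimates. Of the 10 factors, 8 had enough counts to be tested between zones, and Sp7 and Irx3 did not.

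The sequence around a transcription start is shown for the Runx and Mef2c genes, since Runx2, Runx3 and Mef2c had the zone patterns described below and the Runx starts hold matches to the motif of their own family. Sequences are RefSeq windows on GRCm38.p6, 250 bases before to 50 after the start, on the strand of the gene, for 7 of the 10 factors with 15 start sites in all. Capitals mark matches, on either strand, to the RUNX motif TGTGGT or to the TATA box motif, which reads TATAAA. All matches shown lie on the strand opposite to the gene, so the capitals read as the reverse complement of these letters. No match of one overlaps a match of the other. The windows are Runx2 on the minus strand at chr17:44814578-44814877, Runx3 on the plus strand at chr4:135120395-135120694, and Mef2c on the plus strand at chr13:83503784-83504083 for its start 1 and chr13:83523406-83523705 for its start 2.
Runx2 start 1: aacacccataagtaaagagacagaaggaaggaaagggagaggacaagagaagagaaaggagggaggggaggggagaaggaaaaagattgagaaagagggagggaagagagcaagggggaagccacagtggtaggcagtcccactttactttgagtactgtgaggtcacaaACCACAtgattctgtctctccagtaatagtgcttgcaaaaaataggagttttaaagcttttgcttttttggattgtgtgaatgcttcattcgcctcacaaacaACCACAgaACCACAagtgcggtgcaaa
Runx3 start 1: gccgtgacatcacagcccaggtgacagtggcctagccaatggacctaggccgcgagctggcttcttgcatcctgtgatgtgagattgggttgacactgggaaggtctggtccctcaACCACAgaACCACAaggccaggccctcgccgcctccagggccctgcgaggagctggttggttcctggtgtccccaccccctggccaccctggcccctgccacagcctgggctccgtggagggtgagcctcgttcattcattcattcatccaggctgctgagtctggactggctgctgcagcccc
Mef2c start 1: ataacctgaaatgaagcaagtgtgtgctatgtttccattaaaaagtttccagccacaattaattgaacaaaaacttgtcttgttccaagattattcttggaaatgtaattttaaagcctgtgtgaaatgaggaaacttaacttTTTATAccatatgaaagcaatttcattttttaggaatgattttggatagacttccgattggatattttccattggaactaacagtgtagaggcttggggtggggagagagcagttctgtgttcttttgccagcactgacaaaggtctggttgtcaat
Mef2c start 2: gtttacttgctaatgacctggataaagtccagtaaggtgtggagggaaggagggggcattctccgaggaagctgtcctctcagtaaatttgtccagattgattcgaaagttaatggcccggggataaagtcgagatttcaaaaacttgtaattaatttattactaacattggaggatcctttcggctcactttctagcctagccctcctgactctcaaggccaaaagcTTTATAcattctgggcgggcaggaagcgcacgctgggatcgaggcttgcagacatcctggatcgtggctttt
The Runx2 window holds 3 RUNX matches, starting 80 bases before the start and 23 and 31 bases after it. The Runx3 window holds 2, starting 134 and 126 bases before the start. In both genes a pair of matches lies 8 bases apart, and 16.8% of all 32851 RefSeq windows of this length hold at least 1 match. Each of the shown Mef2c windows holds 1 TATA match, starting 107 bases before start 1 and 22 before start 2. Start 3 of Mef2c, not shown, holds 0 matches. Of the 15 windows of the factors 4 hold a TATA match and 4 a RUNX match, beside 13.6% and 16.8% of all windows, and the windows shown were picked with their matches known. Neither shown Mef2c window holds a RUNX, SOX (ACAATG) or MEF2 match. GC content was 45.3% in the Runx2 window, 63.7% in Runx3, 35.7% in Mef2c start 1 and 47.0% in Mef2c start 2, beside a median of 52.7% over all windows. A match describes letters and does not show binding.

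Depth per library ran from 748 to 3347722 counts. The symbols Rn45s, Lars2 and Glra2, which hold ribosomal or repeat reads, took 9.28% to 92.1% of the counts of a sum, and the P2 hypertrophic sum of animal C kept only 20032 other counts. Hypertrophic markers, a list of 10, summed to 828 to 9021 CPM in resting, 68040 to 112900 in hypertrophic and 2407 to 7068 in proliferative sums at P28. At P2 they summed to 69.0 to 421 CPM in resting, 8753 to 71100 in hypertrophic and 550 to 1064 in proliferative sums. The P28 resting sum of animal A held 8159 CPM of Col10a1, the collagen of hypertrophic cartilage, beside 10.1 and 27.2 CPM in animals B and D, so calls that rest on it are also given without animal A. Zones of 1 animal also disagreed in Xist, which is expressed from the inactive X of females: P28 animal D had 0 counts in its resting, 2 in its hypertrophic and 267 in its proliferative sum, and P2 animal G had 128 in its resting sum and 0 in the others. Calls are therefore given without each of these animals as well. In bulk captures, fewer cells of a type and less RNA per cell cannot be told apart.

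**Figure D1:**
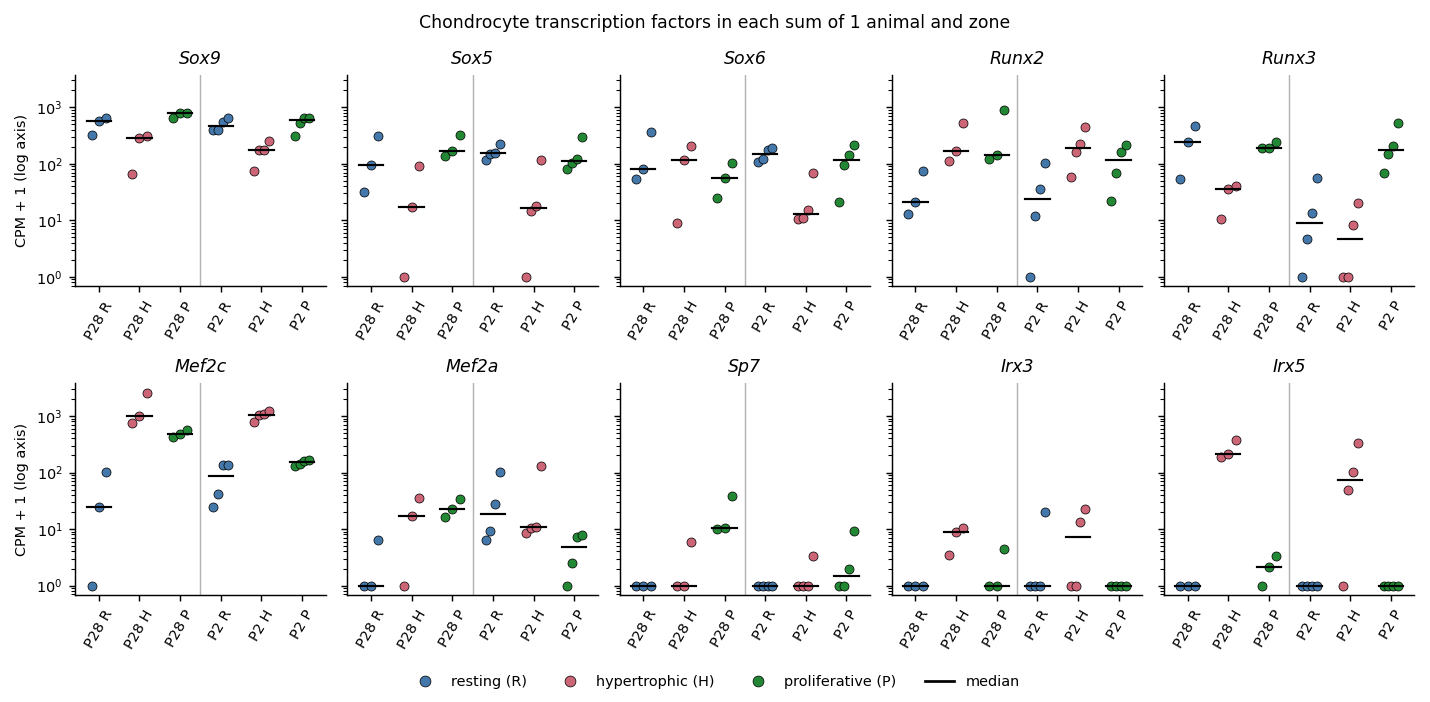
Normalised level of each of the 10 transcription factors in every sum, as CPM + 1 on a log axis, for the resting, hypertrophic and proliferative zones at P28 and P2. Each point is 1 animal and each bar the median of its group. Mef2c and Irx5 points of the hypertrophic zone lie above those of the other zones, apart from 1 P2 hypertrophic sum with 0 Irx5 counts.

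Mef2c (chromosome 13, 83504034 to 83667080, plus strand, GRCm38), the factor that drives hypertrophy, was called in 4 of the 6 zone comparisons, being low in resting and high in hypertrophic sums. Its level was 101, 0 and 23.3 CPM in resting, 755, 1011 and 2561 in hypertrophic and 433, 484 and 564 in proliferative sums at P28. At P2 it was 41.0, 135, 132 and 23.6 CPM in resting, 787, 1038, 1086 and 1211 in hypertrophic and 164, 142, 129 and 161 in proliferative sums. At each age every hypertrophic sum thus lay above every proliferative sum. Every P28 resting sum lay below every P28 proliferative one, while at P2 these groups overlapped.

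Mean Mef2c levels at P28 were 41.3 ± 52.6 CPM in resting, 1443 ± 977 in hypertrophic and 494 ± 66.2 in proliferative sums (SD, n = 3 each). At P2 they were 83.1 ± 59.0 CPM in resting, 1031 ± 178 in hypertrophic and 149 ± 16.5 in proliferative sums (SD, n = 4 each). The order from high to low was thus P28 hypertrophic, P2 hypertrophic, P28 proliferative, P2 proliferative, P2 resting and P28 resting. Neighbours in this order overlapped except P2 hypertrophic with P28 proliferative and P28 proliferative with P2 proliferative sums.

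Against the hypertrophic zone, the resting zone had lower Mef2c by -5.45 ± 0.90 on the log2 scale at P28 (adjusted p = 1.01e-06, edgeR) and by -4.18 ± 0.80 at P2 (adjusted p = 3.65e-05). These calls held in all 9 fits that left out 1 animal, from -7.55 to -4.40 at P28 and from -5.00 to -3.55 at P2. Only 3 of these fits per age left out an animal that carries the difference. The calls also held in every other setting run. Without P28 animal A, whose resting sum held Col10a1, the P28 value was -7.55. The resting against proliferative difference at P28 was -3.99 ± 0.85 (adjusted p = 0.00219 in edgeR), or -3.18 relative to the median of all genes, which was -0.81. It was -6.00 without P28 animal A. This call ended without P28 animal B (-2.95, adjusted p = 0.412), with a library minimum of 50000 counts (adjusted p = 0.165) and without the animal block (adjusted p = 0.172).

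The hypertrophic against proliferative difference of Mef2c was called at P2, at 2.70 ± 0.74 (adjusted p = 0.0198, edgeR quasi-likelihood test). It was 1.46 ± 0.71 at P28 (adjusted p = 0.392), and the change between the ages was -1.24 ± 0.99 (adjusted p = 0.934). The P2 call ended without animal A, D or G (2.95, 2.65 and 2.54, with adjusted p of 0.0918, 0.285 and 0.434), without the low-count filter (0.132), at a minimum of 50000 counts (0.122) and without the animal block (0.0593). Resting against proliferative at P2 was -1.48 ± 0.74 (adjusted p = 1).

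Mef2a (chromosome 7, 67231163 to 67372858, minus strand), the paralog that binds the same motif, was sparse. It had 5.29, 0 and 0 CPM in P28 resting, 16.1, 0 and 34.6 in P28 hypertrophic and 32.9, 21.5 and 15.1 in P28 proliferative sums. At P2 it had 5.47, 27.2, 102 and 8.05 CPM in resting, 9.49, 130, 7.39 and 10.0 in hypertrophic and 6.84, 6.23, 0 and 1.54 in proliferative sums. The 130 CPM of the P2 hypertrophic sum of animal C come from 9 counts, and the zones overlapped at P2. Mef2a differed by -4.21 ± 2.16 between resting and proliferative sums at P28 (adjusted p = 0.472, edgeR). Its gene overlaps Lysmd4 on the opposite strand, and SMART-seq2 does not mark strand, so reads from the overlap cannot be told apart.

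Irx5 (chromosome 8, 92357625 to 92376286, plus strand) had its counts almost entirely in the hypertrophic zone. All 7 resting sums had 0 counts. Hypertrophic sums had 185, 209 and 370.1 CPM at P28 and 47.4, 0, 325 and 99.9 CPM at P2. Proliferative sums had 2.35, 1.13 and 0 CPM at P28, from 2 counts in all, and 0 in all 4 sums at P2. The P2 hypertrophic sum at 0 is that of animal C, the one with 20032 counts outside the repeat symbols.

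Pooled over animals, Irx5 was at least 60.6-fold lower in P28 resting than in P28 hypertrophic sums (0 against 240 counts), and at least 399.8-fold lower at P2 (0 against 346), taking 3 counts over the group as the floor. Hypertrophic over proliferative sums gave a ratio of 250.2 at P28 (95% counting interval 68.5 to 2078) and at least 195-fold higher at P2. All 4 comparisons were called, with edgeR adjusted p of 0.00119 and 3.51e-05 for resting against hypertrophic and 0.00188 and 2.10e-04 for hypertrophic against proliferative, P28 before P2. Without P28 animal A, whose resting sum held Col10a1, both P28 calls held (edgeR adjusted p = 0.0263 for resting against hypertrophic and 0.0464 for hypertrophic against proliferative). The P2 resting against hypertrophic call held in all 9 fits without 1 animal, including those without P2 animal A, D or G, which carry it. The other calls ended without P28 animal B (edgeR adjusted p = 0.0583 and 0.102 for the P28 comparisons) or without P2 animal D or G (0.116 and 0.0611). DESeq2's Wald test passed none of the 4 (adjusted p = 0.315 to 0.468).

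Irx3 (chromosome 8, 91798525 to 91802067, minus strand), which lies 555557 bases from Irx5 in the same cluster, was found in the same zone at far lower level and was not tested. Resting sums had 0 counts at P28, and at P2 they had 7 counts in animal A and 0 in the others. Hypertrophic sums had 1, 3 and 1 counts at P28 and 0, 0, 5 and 45 at P2. Proliferative sums had 3 counts in P28 animal B and 0 elsewhere. P2 hypertrophic sums were at least 28.1-fold higher than P2 proliferative ones, 50 against 0 counts, with 45 of the 50 from animal G. Tested without the low-count filter, it was not called (adjusted p = 0.515, edgeR).

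Sp7 (chromosome 15, 102356606 to 102367182, minus strand), the osteoblast and late hypertrophic factor, was near the limit of detection. At P28 it had 0 counts in all 3 resting sums, 0, 0 and 2 in hypertrophic and 4, 8 and 17 in proliferative sums. At P2 it had 0 in all 4 resting sums, 0, 0, 0 and 5 in hypertrophic and 0, 8, 0 and 3 in proliferative sums. All 3 P28 proliferative sums thus held Sp7 while 5 of the other 6 P28 sums did not. P28 resting sums were at least 3.51-fold lower than proliferative ones, and P28 hypertrophic over proliferative sums gave a ratio of 0.144 (95% counting interval 0.0166 to 0.568). The xylene P28 sums of animals D and E, most of them deeper, held more Sp7 counts, with 39 and 3 in resting, 175 and 17 in hypertrophic and 130 and 25 in proliferative sums. They did not show this pattern: resting against proliferative was -0.92 ± 1.82 and hypertrophic against proliferative -0.25 ± 1.75 (adjusted p = 0.987 and 0.996, edgeR), and animal D had 17.9, 19.99 and 21.4 CPM in resting, hypertrophic and proliferative sums.

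**Figure D2:**
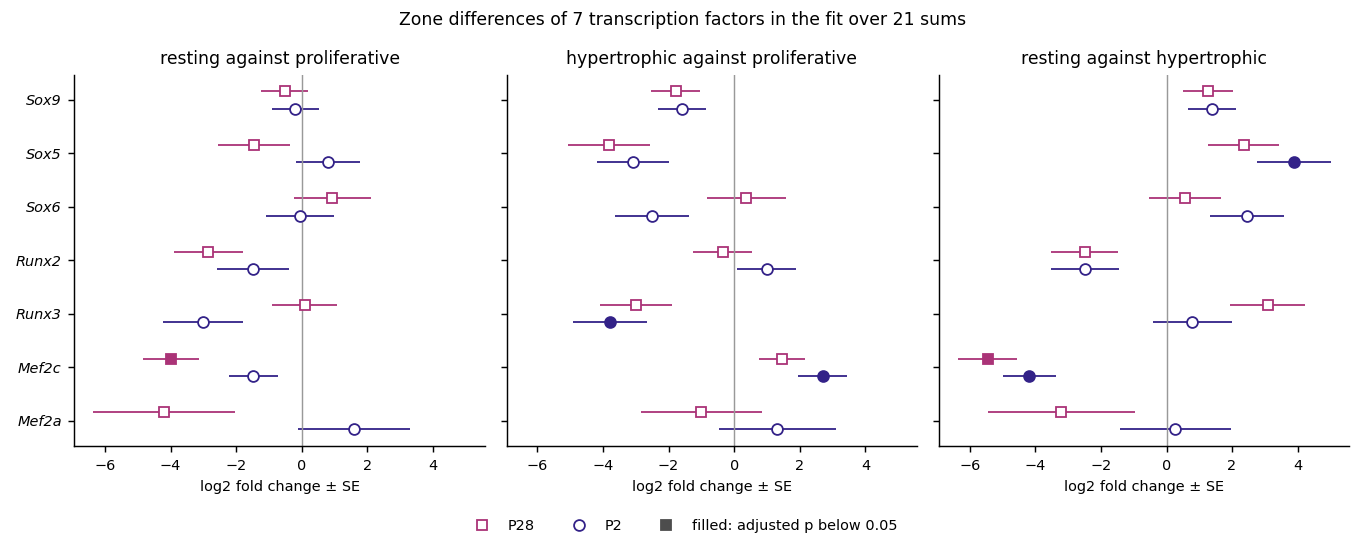
Log2 fold change ± standard error of 7 tested factors between zones, for resting against proliferative, hypertrophic against proliferative and resting against hypertrophic sums at P28 and P2. Filled points were called at an adjusted p under 0.05. Irx5 is left out because groups at 0 counts give its fitted fold no meaning.

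Runx3 (chromosome 4, 135120652 to 135177990, plus strand), the partner of RUNX2 in maturation, was high in the proliferative zone at both ages. Resting sums had 52.9, 238 and 463 CPM at P28 and 54.7, 3.63, 0 and 12.4 CPM at P2. Hypertrophic sums had 40.2, 9.36 and 34.6 CPM at P28 and 0, 0, 7.39 and 19.1 CPM at P2. Proliferative sums had 188, 192 and 239.8 CPM at P28 and 68.4, 204, 515 and 147 CPM at P2. The hypertrophic and proliferative groups did not overlap at either age, and at P2 neither did the resting and proliferative groups.

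The hypertrophic against proliferative difference of Runx3 was -3.00 ± 1.10 at P28 (adjusted p = 0.194) and -3.80 ± 1.13 at P2, where it was called (adjusted p = 0.0388, edgeR quasi-likelihood test). The P2 call held in 3 of 9 fits without 1 animal, none of which left out a P2 animal with all 3 zones. It ended without P2 animal A, D, E or G or P28 animal A or B (up to edgeR adjusted p = 0.405, -4.68 to -3.13). It also ended without the low-count filter (0.0921) and with the depth minimum set on counts without the repeat symbols (0.0616). Resting against proliferative was 0.09 ± 0.996 at P28 (adjusted p = 0.991) and -3.00 ± 1.22 at P2 (adjusted p = 0.785). The change between the ages was 3.09 ± 1.56 (adjusted p = 0.715). Resting against hypertrophic was 3.09 ± 1.15 at P28 (adjusted p = 0.159) and 0.79 ± 1.199 at P2 (adjusted p = 0.834), all in edgeR. DESeq2's Wald test passed the P28 value (3.64, adjusted p = 0.0141).

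Runx2 (chromosome 17, 44495987 to 44814797, minus strand), the maturation and osteoblast factor, had its lowest mean in resting sums, 35.3 CPM at P28 and 36.8 CPM at P2. Libraries under the depth minimum did not share this order, as given further below, but their levels are without TMM and over totals that include the repeat symbols. Resting sums had 74.1, 20.3 and 11.7 CPM at P28 and 101, 10.9, 0 and 35.3 CPM at P2. Hypertrophic sums had 169, 112 and 528 CPM at P28 and 161, 57.7, 224 and 441 CPM at P2. Proliferative sums had 119.9, 140.3 and 888 CPM at P28 and 20.5, 161, 67.8 and 214 CPM at P2. The P28 resting sums lay below all P28 sums of the other zones, while at P2 the groups overlapped. No Runx2 difference was called: resting against hypertrophic was -2.50 ± 1.02 at P28 (adjusted p = 0.224) and -2.48 ± 1.03 at P2 (adjusted p = 0.166), and resting against proliferative at P28 was -2.85 ± 1.06 (adjusted p = 0.261), all in edgeR. With the depth minimum set on counts without the repeat symbols, which keeps only animal D among the P28 resting sums, these 3 values were -5.66, -3.97 and -6.13. The medians over all genes were then -0.44, 0.44 and -1.46. The P2 value passed there (adjusted p = 0.00282, edgeR), beside 1.98% of 11176 genes. For both P28 values the resting arm is then 1 sum, assumed to vary like the other groups, and the xylene resting sum of the same animal had 216 CPM of Runx2. Reads on the opposite strand from Supt3, which overlaps Runx2, cannot be told apart from it.

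Sox9 (chromosome 11, 112782224 to 112787760, plus strand), the lineage factor, was detected in all 21 sums. Its level was 651, 563 and 319 CPM in P28 resting, 64.3, 281 and 313 in P28 hypertrophic and 788, 779 and 642 in P28 proliferative sums. At P2 it was 544, 637, 397 and 389.5 CPM in resting, 171, 72.1, 177 and 249 in hypertrophic and 534, 633, 312 and 641 in proliferative sums. At both ages each hypertrophic sum was below each resting and each proliferative sum. The difference was not called in edgeR, with hypertrophic against proliferative at -1.78 ± 0.76 at P28 (adjusted p = 0.301) and -1.59 ± 0.73 at P2 (adjusted p = 0.279). DESeq2's Wald test passed it at both ages (adjusted p = 0.0331 at P28 and 0.0298 at P2). Resting against proliferative was -0.52 ± 0.72 at P28 and -0.20 ± 0.72 at P2.

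Sox5 (chromosome 6, 143828425 to 144781977, minus strand), a partner of SOX9, had 95.2, 304 and 31.1 CPM in P28 resting, 16.1, 90.5 and 0 in P28 hypertrophic and 134, 166 and 322 in P28 proliferative sums. At P2 it had 222, 156, 117 and 148 CPM in resting, 0, 115, 17.3 and 13.9 in hypertrophic and 103, 79.9, 292 and 123 in proliferative sums. The P2 hypertrophic sums were below the resting ones, the highest of them, 115 CPM in animal C from 8 counts, being just under the lowest resting sum at 117 CPM. Resting against hypertrophic at P2 was called at 3.88 ± 1.13 (adjusted p = 0.0229 in edgeR). This call ended without P2 animal A, D or G or P28 animal B (3.29 to 4.41, up to adjusted p = 0.277), without the filter (0.0526), at a minimum of 50000 counts (0.103), with that minimum at 100000 counts without the repeat symbols (0.104) and without the animal block (2.33, adjusted p = 0.222). At P28 the same difference was 2.35 ± 1.08 (adjusted p = 0.298), and hypertrophic against proliferative was -3.81 ± 1.25 at P28 (adjusted p = 0.111) and -3.08 ± 1.10 at P2 (adjusted p = 0.115) in edgeR, both past the threshold in DESeq2 (adjusted p = 0.0169 and 0.0426). In P28 xylene sums hypertrophic against proliferative was -0.97 ± 0.85 (adjusted p = 0.996, edgeR), with 22.9 and 57.8 CPM in hypertrophic and 108 and 47.6 CPM in proliferative sums of animals D and E.

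Sox6 (chromosome 7, 115470872 to 116038796, minus strand), the other partner, had 52.9, 81.2 and 365 CPM in P28 resting, 8.03, 206 and 116 in P28 hypertrophic and 103, 54.3 and 23.8 in P28 proliferative sums. At P2 it had 107, 173, 187 and 122 CPM in resting, 9.49, 14.4, 9.86 and 68.8 in hypertrophic and 212, 92.4, 20.3 and 141 in proliferative sums. The P2 hypertrophic sums lay below all P2 resting sums, and the P28 zones overlapped. Resting against hypertrophic was 0.56 ± 1.10 at P28 (adjusted p = 0.874) and 2.45 ± 1.13 at P2 (adjusted p = 0.232), neither called in edgeR.

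Set against the background of all 6958 genes, at P28 the test called 1 of 8 factors between resting and proliferative sums (Mef2c, lower), where it called 0.561% of all genes. At P28 it called 1 of 8 between hypertrophic and proliferative sums (Irx5, higher; 1.12% of all genes) and 2 of 8 between resting and hypertrophic sums (Mef2c and Irx5, lower; 1.77%). At P2 it called 0 of 8 between resting and proliferative sums (0.259% of all genes), with 2 at an unadjusted p under 0.05 and 0 by DESeq2. It called 3 of 8 between hypertrophic and proliferative sums at P2 (Irx5 and Mef2c higher, Runx3 lower; 2.31%) and 3 of 8 between resting and hypertrophic sums (Sox5 higher, Mef2c and Irx5 lower; 3.77%). The factors were chosen with earlier results of these data known. They also passed a filter on low counts, in part through the zone where each is high. These shares thus describe the tested members only and are no test. With groups at 0 counts set to their bound, and Irx5 left out of resting against proliferative because both groups are at or under the floor of 3 counts, the median difference at P28 was -1.46 for resting against proliferative, -0.68 for hypertrophic against proliferative and -0.97 for resting against hypertrophic sums, beside -0.81, -0.52 and -0.27 over all genes. At P2 it was -0.20, -0.30 and 0.53, beside 0.15, -0.36 and 0.52 over all genes.

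Whether a zone difference changed with age was tested for 8 factors as the change between P28 and P2, and 0 were called in any of the 3. For resting against proliferative 0.144% of all genes were called, and Runx3, Mef2c (-2.51 ± 1.10) and Mef2a had an unadjusted p under 0.05. For hypertrophic against proliferative 0 of 6958 genes were called (0%), against 413 at an unadjusted p under 0.05 and 74 called by DESeq2. For resting against hypertrophic 0.273% were called, and 0 factors had an unadjusted p under 0.05. DESeq2 also called 0 factors in all 3.

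Ages were compared within each zone, P28 against P2, with the animals unrelated between ages and the deposit set as a term. In resting sums 6 factors were tested and 0 called, with 0.872% of 3327 genes called. Runx3 had the largest difference of them, 251 ± 205 CPM at P28 against 17.7 ± 25.2 CPM at P2 (SD, n = 3 and 4), or 4.28 ± 1.39 on the log2 scale (adjusted p = 0.193, edgeR). The lowest P28 sum, 52.9 CPM, was under the highest P2 sum, 54.7 CPM in animal A. Without P2 animal A the difference was 6.03 and passed (adjusted p = 4.83e-04), it passed without P28 animal A too (4.89, adjusted p = 0.0397), and DESeq2 called it (4.43, adjusted p = 0.0487).

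In hypertrophic sums 4 factors were tested between the ages and 0 called (0.102% of 1963 genes), with 0 at an unadjusted p under 0.05 and 0 by DESeq2. Mef2c differed by 0.15 ± 0.77, Irx5 by 1.07 ± 1.02, Sox9 by 0.28 ± 0.94 and Runx2 by 0.03 ± 0.92. In proliferative sums 6 were tested and 0 called (0.679% of 4712 genes), with 1 at an unadjusted p under 0.05 and 0 by DESeq2. Mef2c was higher in all 3 P28 than in all 4 P2 proliferative sums, 494 ± 66.2 against 149 ± 16.5 CPM, yet its 1.60 ± 0.79 did not pass (adjusted p = 0.865, edgeR). Runx3 differed there by -0.27 ± 0.90 and Sox9 by 0.39 ± 0.63.

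**Figure D3:**
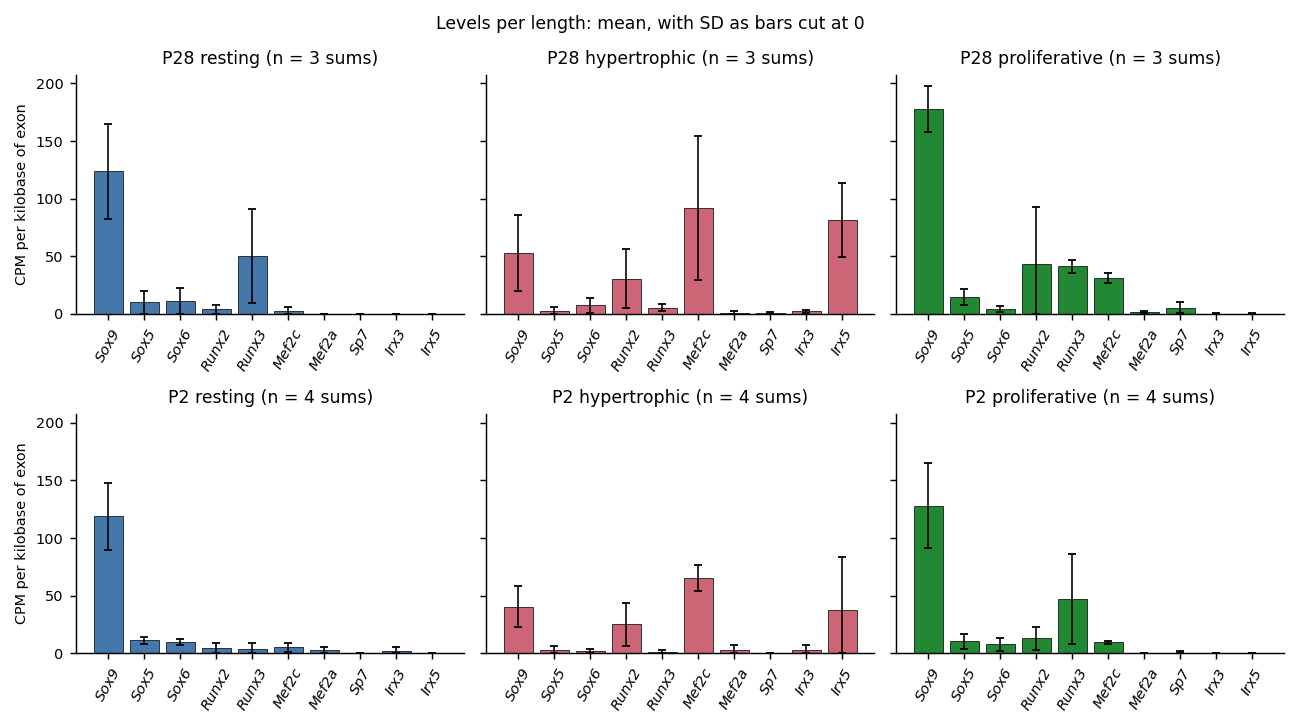
Mean level per kilobase of merged exon, in CPM per kilobase, of the 10 factors in each zone at P28 and P2, with bars for the mean over animals and lines for the SD, cut at 0. Sox9 is the tallest bar in resting and proliferative groups and Mef2c in hypertrophic groups.

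Levels were also set per kilobase of merged exon, which joins all annotated exons of a gene. Its length is 15715 bases for Mef2c and 4135 for Sox9. It need not be that of the transcript present, so the order between genes depends on it. On this measure Sox9 led the 10 factors in the resting zone, at 124 ± 41.6 CPM per kilobase at P28 and 119 ± 29.0 at P2. In hypertrophic sums the mean of Mef2c was highest, at 91.8 ± 62.2 CPM per kilobase at P28 and 65.6 ± 11.3 at P2. There Irx5 followed at P28 (81.5 ± 32.2) before Sox9 (53.1 ± 32.7), while at P2 Sox9 (40.5 ± 17.6) stood before Irx5 (37.8 ± 46.0). In proliferative sums Sox9 led again, at 178 ± 19.8 at P28 and 128 ± 37.1 at P2, before Runx3 (46.8 ± 39.1) at P2. At P28 Runx2 (43.3 ± 49.5), Runx3 (41.3 ± 5.75) and Mef2c (31.4 ± 4.21) followed within their SD, the Runx2 mean resting on animal D. Within their SD, Mef2c, Irx5 and Sox9 overlapped in P28 hypertrophic sums, as did Sox9 and Irx5 in P2 hypertrophic sums. Differences between genes were not tested. Mef2a, Sp7 and Irx3 stayed at or under 5.41 CPM per kilobase in every group.

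**Figure D4:**
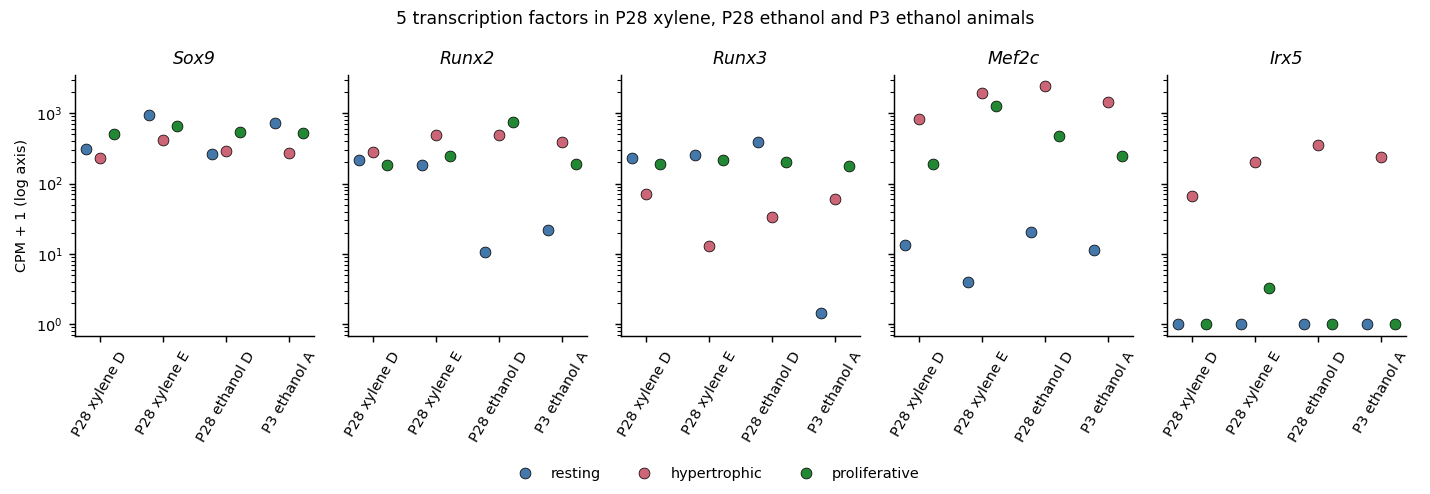
Levels of Sox9, Runx2, Runx3, Mef2c and Irx5 by zone in P28 xylene sums of animals D and E, the P28 ethanol sums of animal D and the ethanol libraries of P3 animal A, as CPM + 1 on a log axis. P3 values are over the library total without TMM. Mef2c is lowest in resting and highest in hypertrophic captures of all 4, and Irx5 is highest in hypertrophic captures, being at 0 in both other zones of 3 of the 4.

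The xylene-fixed P28 sections, not used above, gave the same order for Mef2c and Irx5 in 2 animals, of which D also entered the ethanol tests and E did not. The labels of D and E share their leading number. Mef2c had 27 and 3 counts in resting, 7202 and 4365 in hypertrophic and 1155 and 3299 in proliferative xylene sums of animals D and E. Irx5 had 0 and 0, 567 and 452, and 0 and 6 counts in the same order. A fit of the xylene sums alone was added after seeing the data and compares zones within only 2 animals. In it resting against hypertrophic was -7.04 ± 0.93 for Mef2c (adjusted p = 1.07e-05, edgeR), where 1.46% of 9707 genes were called. Irx5 was called there too (adjusted p = 4.38e-04). Resting against proliferative called Mef2c at -5.94 ± 0.92 (adjusted p = 3.70e-04; 0.34% of all genes), and hypertrophic against proliferative called Irx5 at 7.66 ± 1.55 (adjusted p = 0.00427; 0.453%). Runx3 in this fit was 2.77 ± 0.80 for resting against hypertrophic (adjusted p = 0.0580).

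Runx2 in xylene resting sums, at 216 and 181 CPM scaled in the fixation fit, was close to the xylene proliferative sums at 182 and 245 CPM, whereas the ethanol resting sum of animal D had 9.71 CPM beside 751 CPM in proliferative. Its xylene resting against proliferative difference was -0.12 ± 0.66 (adjusted p = 0.998, edgeR), against -2.85 ± 1.06 in the ethanol fit. Whether the fixative made this difference was not tested.

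Xylene was set against ethanol at P28 over 6 xylene sums of animals D and E and 3 ethanol sums of animal D, all with at least 100000 counts, with the zone as a term. The animal was not a term, so zones of 1 animal were treated as separate sums. The ethanol arm is 1 animal and holds no replicate animal. With the animal as a block 0.0583% of genes were called. Of the 10 factors 9 were tested and 0 called, with 0 at an unadjusted p under 0.05 and 0 by DESeq2, and 0.035% of 8583 genes were called. The median of all genes was 1.25 higher in xylene, while the factors ranged from -0.61 (Irx5) to 1.80 (Mef2a), and Mef2c was at -0.53 ± 0.65. The repeat symbols took 13.3% to 35.8% of counts in xylene and 45.1% to 85% in ethanol sums, and their part in the differences was not tested.

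The P3 animal, with 1 library per zone and no replicate, also had its Mef2c and Irx5 counts highest in the hypertrophic zone. Mef2c was 10.54 CPM of the library total in resting, 1420.0 in hypertrophic and 242 in proliferative captures, and Irx5 had 0, 546 and 0 counts. Sox5 was 254 CPM in resting, 2.19 in hypertrophic and 96.4 in proliferative captures. Runx3 was 0.458, 58.7 and 175 CPM and Runx2 21.1, 389.9 and 186 CPM in the same order. Sp7 had 0, 19 and 2 counts and Irx3 0, 4 and 0 counts. The label of this animal shares its leading number with that of P2 animal F, and differs from that of P2 animal G by 1 digit and a suffix. The meaning of the leading number is not stated.

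**Figure D5:**
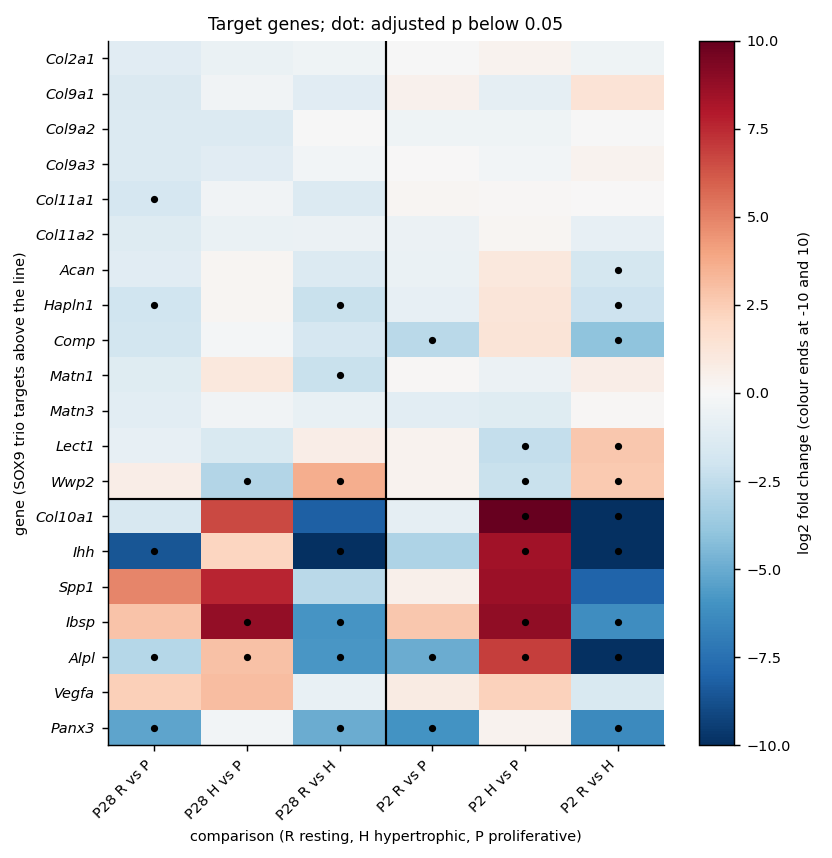
Log2 fold change of known target genes of the SOX9, SOX5 and SOX6 group (13 genes) and of RUNX2, MEF2C and SP7 (7 tested genes) in the zone comparisons at P28 and P2, as a colour scale, with a dot on each called value. Each called value of the second group is positive in hypertrophic against proliferative and negative in resting against hypertrophic sums.

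Targets of the factors were read from lists taken from textbook knowledge, chosen with earlier results of these data known. Of the 10 genes known to depend on RUNX2, MEF2C or SP7, 7 were tested, in zone comparisons that called 0.259% to 3.77% of all genes. The targets called, Alpl, Ibsp, Ihh, Col10a1 and Panx3, are also in the list of hypertrophic markers above. Their zone pattern is thus not independent of the zone markers and does not bear on the factors. Between resting and hypertrophic sums 0 rose and 4 fell at P28 and 0 rose and 5 fell at P2, with a list median of -5.79 at P28 and -8.03 at P2 beside -0.27 and 0.52 over all genes (groups at 0 counts set to their bound). Between hypertrophic and proliferative sums 2 rose at P28 (Ibsp and Alpl) and 4 at P2 (Alpl, Ibsp, Ihh and Col10a1), and 0 fell. Between resting and proliferative sums 0 rose, and 3 fell at P28 (Panx3, Alpl and Ihh) and 2 at P2 (Panx3 and Alpl).

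Col10a1, a direct RUNX2 target, averaged 2732 ± 4700 CPM in P28 resting, 74490 ± 24390 in P28 hypertrophic and 2080.0 ± 1723 in P28 proliferative sums (SD, n = 3 each), the resting mean coming from animal A. At P2 it averaged 1.98 ± 1.91 CPM in resting, 32180 ± 22770 in hypertrophic and 7.67 ± 8.96 in proliferative sums (SD, n = 4 each). Alpl, the phosphatase of mineralisation, was 42.1 ± 23.1 in resting, 2314 ± 1614 in hypertrophic and 295 ± 121 CPM in proliferative sums at P28. Ihh, the signal of prehypertrophic cells, had 0 resting counts at either age. The osteocalcin genes Bglap and Bglap2, which SP7 and RUNX2 switch on in osteoblasts, had 0 counts in every resting and hypertrophic sum and 1 count over all proliferative sums.

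Markers of osteoblasts and osteocytes stand beside Runx2, Sp7 and Mef2c, and 3 of the 10 were tested between zones. Hypertrophic against proliferative called 1.12% of all genes at P28 and 2.31% at P2. At P2, resting against proliferative called 0.259% and resting against hypertrophic 3.77%. Of the 10 in the list 5 had a count in resting, 5 in hypertrophic and 5 in proliferative sums at P28, with a summed level of 62.2 to 269 CPM in resting, 329 to 1187 in hypertrophic and 445 to 659 in proliferative sums. At P2 4, 5 and 5 had a count, and the range was 626 to 1768 CPM in resting, 106 to 1629 in hypertrophic and 217 to 304 in proliferative sums. Phex, an osteocyte and osteoblast gene, was called higher in hypertrophic than in proliferative sums, by 5.97 ± 1.51 at P28 (adjusted p = 0.0127, edgeR), with 72.3 to 783 CPM in hypertrophic and 0 to 49.4 CPM in proliferative sums. The fit called it at P2 too (adjusted p = 2.10e-04), but 1 P2 proliferative sum, at 171 CPM from 25 counts, lay above every P2 hypertrophic sum, at 14.4 to 98.6 CPM, and the other proliferative sums were at 0. Bglap, Bglap2 and Bglap3 were at 0 in all hypertrophic sums. Blood markers had 8 of 10 among the gene symbols, of which 1, the haemoglobin chain Beta-s, was tested between zones. It was higher in P2 hypertrophic than proliferative sums, by 4.47 ± 1.29 (adjusted p = 0.0308, edgeR), and Hba-a1 and Hba-a2 were at 0. The summed blood list was 17.3 to 779 CPM in P2 hypertrophic and 1.04 to 54.2 CPM in P2 proliferative sums. Of 8 perichondrium markers, 4 of them tested, Dcn and Col3a1 rose in P2 resting against proliferative sums, with a summed level of 714 to 4765 CPM in resting and 149 to 863 CPM in proliferative sums. Between P2 resting and hypertrophic sums Dcn and Col6a3 of this list were called, 1 higher and 1 lower. Phex and Col1a2 of the osteoblast list were called there too, again 1 higher and 1 lower. The part of these cells in the factor levels was not tested.

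All 13 targets of the SOX9 group were tested, and their called members went in both directions. The zone comparisons called 0.259% to 3.77% of all genes. The list median at P28 was -1.27 for resting against proliferative, -0.36 for hypertrophic against proliferative and -0.72 for resting against hypertrophic sums, and at P2 it was -0.04, -0.26 and 0.06. Wwp2, a ubiquitin ligase gene that SOX9 activates, was lower in hypertrophic than in proliferative sums at both ages, by -2.95 ± 0.69 at P28 and -2.25 ± 0.65 at P2 (adjusted p = 0.00519 and 0.0320, edgeR). It was the 1 called of 13 at P28, and at P2 Lect1, chondromodulin, fell with it (-2.38 ± 0.58). Between resting and hypertrophic sums at P28 Wwp2 rose while Hapln1, the link protein, and Matn1, a matrilin, fell. At P2 Wwp2 and Lect1 rose and Comp, Hapln1 and Acan, the main proteoglycan of cartilage, fell. Between resting and proliferative sums Hapln1 and Col11a1 fell at P28, and Comp at P2. The change of resting against hypertrophic between the ages was called for Col9a1, a minor cartilage collagen, at -2.46 ± 0.64 (adjusted p = 0.0407, edgeR).

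With age, 5 of the 13 SOX9 targets changed in proliferative sums, where 0.679% of 4712 genes were called. Col2a1, the main collagen of cartilage, was 93970 ± 37710 CPM at P28 (n = 3) against 27200 ± 14750 CPM at P2 (n = 4), a difference of 1.62 ± 0.26 (adjusted p = 2.29e-07, edgeR). Hapln1, Comp and Col11a1 rose too, by 1.83 ± 0.36, 2.05 ± 0.43 and 1.17 ± 0.33, and Matn1 fell by 2.47 ± 0.59, while Sox9, Sox5 and Sox6 themselves were not called. Of the RUNX2, MEF2C and SP7 targets, Col10a1 (7.37 ± 0.76) and Alpl (4.87 ± 1.17) were higher at P28 in proliferative sums and Ibsp (3.31 ± 0.76) in hypertrophic ones.

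Relatives of the factors were counted from lists of the same families. Of 10 other Sox genes 4 were tested, and Sox4 and Sox11 were called, in comparisons where 1.12% to 3.77% of all genes were called. Sox4, which acts in progenitor and osteoblast development, was higher in hypertrophic sums than in proliferative ones at both ages, by 5.30 ± 1.46 at P28 and 6.31 ± 1.47 at P2 (adjusted p = 0.0309 and 0.00271, edgeR). It had 32.1 to 586 CPM in P28 hypertrophic and 113 to 256 in P2 hypertrophic sums, against 0 to 7.92 and 0 to 2.46 CPM in the proliferative sums. Sox11, its closest relative, went the other way: it had 3865 counts in P2 resting and 22 in P2 hypertrophic sums, a resting against hypertrophic difference of 4.94 ± 1.36 (adjusted p = 0.0130).

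Of 9 Runx relatives and partners 6 were tested and 1 called, in P2 comparisons where 2.31% and 3.77% of all genes were called. Runx1t1, a corepressor partner known from RUNX1 fusions, was lower in P2 hypertrophic than in proliferative sums (2 against 172 counts, ratio 0.0196, 95% counting interval 0.00236 to 0.0720, adjusted p = 0.0423, edgeR) and higher in P2 resting than in hypertrophic sums (646 against 2 counts, ratio 93.2, 25.7 to 771; adjusted p = 0.0103). Of 7 Mef2 paralogs and repressors and 7 other Sp genes 3 each were tested and 0 called between zones, and of 5 other Irx genes 0 were tested. Of 34 other skeletal transcription factors 23 were tested. In P2 hypertrophic against proliferative sums 1 of 23 was called (2.31% of all genes) and in P2 resting against hypertrophic sums 1 of 23 (3.77%), which is near the share of all genes. Gli1, the hedgehog response gene, was at least 64.0-fold lower in P2 hypertrophic than in proliferative sums (0 against 324 counts, adjusted p = 0.0319, edgeR). Nfia was higher in P2 resting than in hypertrophic sums by 4.66 ± 1.39 (adjusted p = 0.0289, edgeR).

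The genes nearest in pattern to each factor over the 21 sums were found as the smallest root mean square difference of centred log2 CPM. Irx5 was closest to Plekhn1 (0.847) and Bmp8a (1.02), a bone morphogenetic protein gene, and Mef2c to Lama4 (1.46) and Chsy1 (1.46), a chondroitin synthase. Sox9 was closest to Pabpc1 (0.748) and Snhg9 (0.795), Sox5 to Hnrnpd (1.13) and Cnbp (1.28) and Sox6 to Gramd3 (0.922) and Fry (1.02). Runx2 was closest to Aldh9a1 (1.29) and Gpc1 (1.396), Runx3 to Rspo3 (1.71) and Nckap5 (1.71), and Mef2a to Aptx (1.21) and Tnrc18 (1.24). These distances share the libraries and their depth, and low or flat genes lie close to one another by this measure. Among the factors themselves the closest pair was Sox9 and Sox6 (1.22), followed by Sox9 and Sox5 (1.77) and Runx2 and Mef2c (2.02).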

How the data were processed

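The 10 genes and all related lists were chosen with earlier results of these data known. The authors deposited raw counts per gene symbol, in 100 columns for 68 libraries. The submitters' processing notes list mm10 as the build and, as tools, Subread with featureCounts 1.5.3, STAR 2.5.2b and cutadapt. No annotation or strand option was named in the sources used here. Of the libraries 32 have 2 columns, which differed by about sampling noise over 10 or more counts per gene (chi-square per degree of freedom up to 1.03 where over 500 genes could be compared) and were summed as 1 library.

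Libraries taken as the same animal from their labels were summed by zone. The sums were tested with edgeR 4.0.16 under R 4.3.3, with animal as block and 8 residual degrees of freedom. Settings were TMM, filterByExpr, the robust quasi-likelihood test and Benjamini-Hochberg adjustment over the genes tested, at a threshold of 0.05. The pairing thus assumes that labels differing only in a closing digit name the same animal. For P28 animal A the resting and hypertrophic sums come from different ones of these labels. Deviations of same-animal sums from their group means correlated by -0.00358 to 0.0527 at P28 and by 0.0883 to 0.187 at P2. Sums of different animals were not compared in this way, so these values do not test the pairing. Age fits had 4 and the fixation fit 5 residual degrees of freedom. The scripts were tested on simulated data. All 10 factors and the 2 genes nearest to each factor are named, and called members of the other lists in part. Bounds take 3 counts over a group as the floor, and counting intervals (95%) cover counting error only. Loci and exon lengths are from GENCODE M21 on GRCm38, the build also called mm10. Alternatives were RLE scaling, DESeq2 1.42.0, no low-count filter, other depth minimums, no block, no deposit set term, no repeat symbols, xylene sums included and leaving out each animal, and, added after seeing the data, xylene sums alone and the depth minimum set on counts without repeat symbols. The fixation fit was also run with the animal as a block. With xylene sums included, the ethanol and xylene sums of P28 animal D were separate blocks. Paralogs and overlapping genes may share reads.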

Additional observations from a re-analysis of the deposited data

Results flagged for a closer look

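Of 26 groups of 4 sums with a value, 6 held a sum far from the others (gap over range above Dixon's 95% critical value, which chance gives in about 1 of 20 groups). Only P2 groups have 4 sums, so no P28 group was looked at in this way. Sox5 was 115.4 CPM in the hypertrophic sum of animal C, from 8 counts, with the others at 0 to 17.3 CPM. Sox6 was 68.8 CPM in the hypertrophic sum of animal G, against 9.49 to 14.4 in the others. Mef2a was 129.8 CPM in the hypertrophic sum of animal C, from 9 counts, and 7.39 to 10.0 elsewhere. Sp7 was 2.389 CPM in the hypertrophic sum of animal G and 8.301 CPM in the proliferative sum of animal D. Irx3 was 19.14 CPM in the resting sum of animal A and 0 in the other resting sums.

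Factors were also found in libraries that entered no test. In the P3 animal, 6 of the 10 factors had more than 3 counts in the resting library, 10 in the hypertrophic and 7 in the proliferative one. In the ethanol libraries under the depth minimum, 7 did over 10 resting libraries, 6 over 8 hypertrophic libraries and 6 over 7 proliferative libraries. Pooled over these shallow libraries, Irx5 had 1 count in resting, 7 in hypertrophic and 0 in proliferative libraries. Mef2c was 83.2 CPM in resting, 149 in hypertrophic and 159 in proliferative libraries, and Sox9 was 501 CPM in resting, 44.2 in hypertrophic and 363 in proliferative libraries. Runx2 was 140 CPM in resting, 37.9 in hypertrophic and 71.9 in proliferative libraries (74, 12 and 19 counts). Here Runx2 was thus highest in resting and Mef2c in proliferative libraries, unlike in the tested sums. These values are over library totals that include the repeat symbols, without TMM scaling. The repeat symbols took a larger part of the hypertrophic than of the resting totals, so the zone order is not like for like with the tested sums. Both ages are pooled in these values.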

How the results depend on the processing

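Of 10 called values of single factors, 135 of 168 pairs of value and alternative stayed past the threshold and 0 had the other sign. These pairs include fits that left out an animal which carries no zone difference of that age. Of 1323 pairs for the 87 uncalled values, 92 had the other sign and 16 passed. Another depth minimum, set on counts without Rn45s, Lars2 and Glra2, was chosen after seeing the data. With it 1 factor was called for P2 resting against proliferative (Runx3, -4.72, adjusted p = 0.036, edgeR), where the count was 0, beside 0.259% of 11176 genes. For P28 resting against proliferative, where the main fit called 1 factor, Runx2 was then at -6.13. The median of all genes was then -1.46 there, beside -0.81 in the main fit. The P28 resting arm of that setting is 1 sum, that of animal D, assumed to vary like the other groups. P28 resting against proliferative fell to 0 at a minimum of 50000 counts and without the animal as replicate block, which changed no other count by over 1.5 times. P2 hypertrophic against proliferative fell to 1 from 3 with no low-count filter. P28 hypertrophic against proliferative reached 2 from 1 with DESeq2 and with xylene sums included, and resting P28 against P2 reached 1 from 0 with DESeq2. Leaving out 1 animal at a time, calls ranged from 0 to 4 for P2 hypertrophic against proliferative, from 0 to 1 for P28 resting against proliferative, P28 hypertrophic against proliferative and resting P28 against P2, from 1 to 2 for P28 resting against hypertrophic and from 2 to 3 for P2 resting against hypertrophic. The cause of these moves was not tested. RLE scaling moved the median of all genes by 0.57 for P28 resting against proliferative and 0.39 for P28 resting against hypertrophic. Xylene against ethanol could not be fitted without P28 animal D, the source of all its ethanol sums. DESeq2 called 369 genes for P2 hypertrophic against proliferative, against 161 by edgeR, and 472 against 262 for P2 resting against hypertrophic. At P28 it called 122 against 39 for resting against proliferative, 200 against 78 for hypertrophic against proliferative and 329 against 123 for resting against hypertrophic, and 233 against 3 for xylene against ethanol. Depth limits Sp7, Irx3 and Mef2a in the tested ethanol zone groups, with at most 50 counts per group but for Mef2a in P2 resting sums.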

Other observations

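Other start sites of the factors held matches that the zone results do not bear on. Sox5 start 1 held 1 SOX match (ACAATG), 154 bases before the start, and Sox6 start 3 held 2, against 12.6% of all windows with a match. Mef2a start 1 held 1 MEF2 match, 2 bases before the start, a motif found in 3.19% of windows. Runx3 start 2 held 0 RUNX matches and 3 GC boxes (GGGCGG), against 35.7% of windows with a GC box, and had a GC content of 77.3%.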
